A study of Mus musculus with 12 samples.

Results

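Liver RNA of 10 hydroxysteroid dehydrogenases and steroid reductases is described here: Hsd3b7, Akr1d1, Srd5a1, Akr1c6, Hsd17b6, Hsd17b2, Hsd17b11, Hsd17b13, Hsd17b12 and Hsd17b10. They were chosen by gene symbol, with earlier results of these same expression values known, from a table of 23849 symbols that lists all 10. A further 28 genes of the same families in that table serve as the comparison. Because of how the members were chosen, each fold change and p-value of theirs is a description of these 12 livers and not independent evidence.

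Hydroxysteroid dehydrogenases move hydrogen between a hydroxyl and a keto group on a steroid or a related lipid, and steroid reductases remove a double bond from the steroid ring. In liver, such enzymes build bile acids from cholesterol and switch androgens and estrogens between active and inactive forms. Several enzymes that carry the family name work mainly on other substrates, such as fatty acyl chains and mitochondrial intermediates, and some sit on the surface of lipid droplets.

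The samples were livers of male mice, 8 weeks of age and on a C57BL/6J background, fed a high-fat diet (HFD) in every group. Mice received vehicle, which was drinking water, or Libramed, a gel-forming blend of plant fibers that the study calls Policaptil Gel Retard, by oral gavage every day shortly before lights off, over the last 2 weeks of the diet. Tissue was taken at ZT0 or ZT12, where zeitgeber time (ZT) counts hours from lights on, so that ZT12 opens the active phase of the mouse. The 4 groups, with 3 mice each, were vehicle at ZT0, vehicle at ZT12, Libramed at ZT0 and Libramed at ZT12. All 4 groups were on HFD, so an effect of the diet itself cannot be described from these livers. Because gavage came daily shortly before lights off, time of day and time since gavage cannot be told apart here.

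Expression was given as FPKM, the number of sequenced fragments scaled by transcript length and by the size of the library, which allows levels of different genes to be compared. The absolute depth is unknown. The libraries' relative depths, read from the spacing of very low values, spanned a 1.87-fold range, with Libramed at ZT12 replicate 2 the shallowest and Libramed at ZT0 replicate 2 the deepest. Of 10 clock genes tested to check the time labels, 7 were higher and 3 lower at ZT12 in each treatment (limma adjusted p under 0.05). Those higher were Dbp, Per1, Per2, Per3, Ciart, Tef and Usp2, and those lower were Nr1d1, Arntl and Clock. Of all genes, 10.4% were called with vehicle and 12.4% with Libramed. The summed FPKM of 9 hepatocyte markers was between 47255 and 69274 in every library. Albumin (Alb) was listed at 0 in all 12, as were the pancreas enzymes Prss1, Prss2, Cpa1 and Amy2a5. In whole tissue, fewer cells of a type and less RNA per cell cannot be told apart.

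The 10 members spanned a wide range of levels. Akr1c6, an aldo-keto reductase that acts on estradiol and other steroids, was the highest, with a mean of 1107 FPKM ± 107 (SD, n = 12) and rank 83 among the 9806 genes tested. Hsd17b10 (361 FPKM) and Hsd3b7 (359 FPKM) followed. Hsd17b10 was above Hsd3b7 in 6 of 12 livers, all of them at ZT12, and below it in every liver at ZT0. Hsd17b13 (301 FPKM) came next by its mean and was above Hsd17b2 (115 FPKM) in all 12. Hsd3b7 was above Hsd17b13 in 6 of 12 livers, all of them at ZT0, and below it in every liver at ZT12. The middle levels of Hsd17b2, Hsd17b11 (92.6 FPKM), Hsd17b12 (87.9 FPKM) and Akr1d1 (76.1 FPKM) lay close together, and the upper gene of each neighbouring pair was above the lower in only 7 or 8 of 12 livers. Hsd17b6 (45.01 FPKM) and Srd5a1 (33.2 FPKM) were the lowest, and Hsd17b6 was above Srd5a1 in 5 livers. Even Srd5a1 was above 80.9% of the genes tested.

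**Figure D1:**
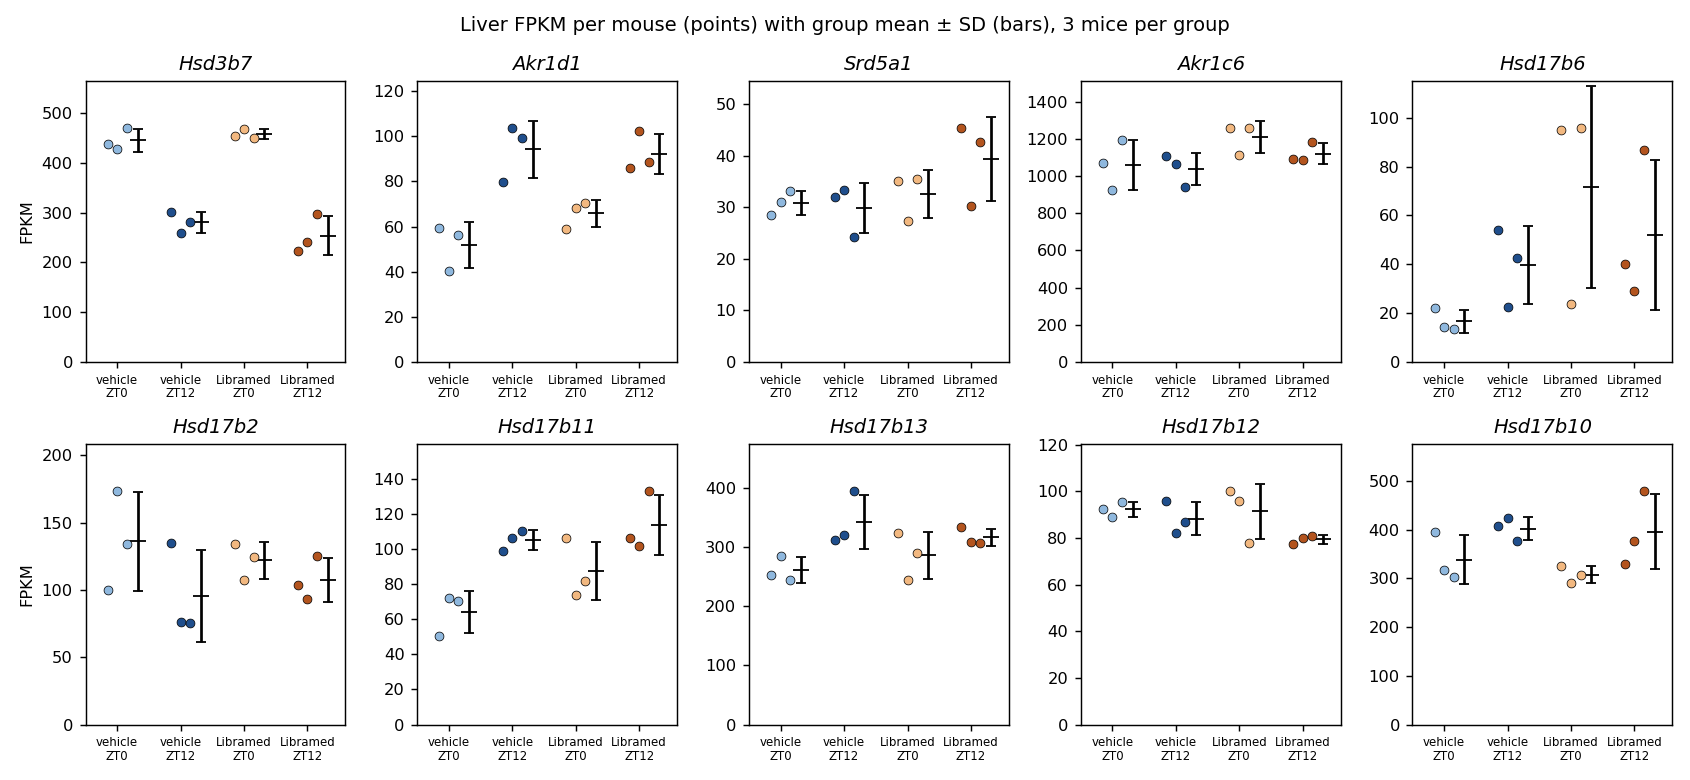
FPKM (vertical axes, from 0) of each of the 10 genes in the livers of 12 mice, 1 point per mouse, in the 4 groups, with the group mean ± SD as a bar beside the points. Hsd3b7 lies between 428 and 471 FPKM in all 6 livers at ZT0 and between 224 and 301 FPKM at ZT12, whereas Hsd17b6 spreads from 13.6 to 95.9 FPKM.

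To determine which of these transcripts differed between the end and the beginning of the active phase, ZT12 was compared with ZT0 in each treatment and over both, using limma on log2(FPKM + 1). Time differences are given on this log2 scale as ZT12 minus ZT0, and a gene is called when its adjusted p, over all 9806 genes, is under 0.05. In vehicle-treated mice 3 of the 10 members were called, Akr1d1 and Hsd17b11 higher and Hsd3b7 lower, where 10.4% of all genes were called. In Libramed-treated mice 2 were called, Akr1d1 higher and Hsd3b7 lower, beside 12.4% of all genes. Over both treatments 5 were called, with Hsd17b10 and Hsd17b13 added on the higher side, beside 29.7% of all genes.

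At an unadjusted p under 0.05, the counts were 5 members with vehicle (27.4% of all genes), 4 with Libramed (29.2%) and 5 over both (41.0%). The values at ZT12 and ZT0 did not overlap for 5 members with vehicle (33.2% of all genes), for 3 with Libramed (34.9%) and for 2, Hsd3b7 and Akr1d1, over both (13.3%). The median difference of the 10 members over both treatments was 0.18, beside 0.01 for all genes.

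Markers of some other liver cells also moved with time. Endothelial markers summed to between 28.0 and 37.9 FPKM at ZT0 and between 14.1 and 24.3 FPKM at ZT12 with vehicle, and to between 36.3 and 44.4 FPKM and between 22.5 and 23.9 FPKM with Libramed, and the 6 tested, of 7 listed, all fell over both treatments (limma adjusted p under 0.05). Stellate and fibroblast markers fell in 4 of 5 tested, and hepatocyte markers rose in 2 of 8 tested and fell in 0. Kupffer cell and macrophage markers were called in 0 of 5 tested, and cholangiocyte markers fell in 1 of 4. Beside these counts, 29.7% of all genes were called. The part of cell makeup in the members' differences was not tested.

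The largest fall with time among the members belonged to Hsd3b7 (chr7:127800604-127803802, plus strand, mm10), which oxidises and isomerises the sterol ring just after cholesterol has been hydroxylated on its way to bile acids. With vehicle, Hsd3b7 was at 437, 428 and 471 FPKM at ZT0 and at 301, 259 and 281 FPKM at ZT12. With Libramed it was at 454, 469 and 450.02 FPKM at ZT0 and at 224, 241 and 298 FPKM at ZT12. Every liver at ZT12 was below every liver at ZT0, in both treatments. The difference was −0.67 (SE 0.092, limma adjusted p = 0.0101) with vehicle, −0.86 (SE 0.116, adjusted p = 0.00657) with Libramed and −0.76 (SE 0.076, adjusted p = 2.77e-05) over both. An exact permutation test of the time labels within treatments gave p = 0.005 for Hsd3b7, the smallest that its 400 arrangements allow. The fall over both treatments was called in all 20 alternative analyses. With vehicle it was called in 12 of 15, and those that lost the call included the analysis without ZT12 replicate 2 (adjusted p = 0.0533) and the Cyber-T style test (adjusted p = 0.0803). Of the 100-base windows of Hsd3b7 transcripts, 42.7% are also part of transcripts annotated to Gm49388. The level of Hsd3b7 is uncertain for that reason, by an amount that was not estimated.

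Akr1d1 (chr6:37530173-37568815, plus strand), the reductase that takes the product of the Hsd3b7 step and bends the steroid ring, went the other way. With vehicle it was at 59.3, 40.1 and 56.1 FPKM at ZT0 and at 79.8, 104 and 99.1 FPKM at ZT12. The Libramed livers were at 59.0, 68.2 and 70.3 FPKM at ZT0 and at 86.1, 102 and 88.4 FPKM at ZT12. The 6 livers at ZT12 were all above the 6 at ZT0. Akr1d1 rose by 0.86 (SE 0.172, limma adjusted p = 0.0280) with vehicle, by 0.48 (SE 0.105, adjusted p = 0.0291) with Libramed and by 0.67 (SE 0.116, adjusted p = 0.00113) over both. The exact permutation p over both was 0.005, and the rise was called in all 20 alternatives. With Libramed the call held in 6 of 15. It was lost without any 1 of the 3 ZT0 libraries or without ZT12 replicate 2 or 3 (adjusted p between 0.0569 and 0.0933), and in 4 analyses that kept all libraries, namely without a minimum, in the fit over all 12 samples, after quantile normalization and in the Cyber-T style test (adjusted p up to 0.106). With vehicle it held in 10 of 15 and was lost without ZT0 replicate 3 or ZT12 replicate 2 or 3 (adjusted p between 0.0751 and 0.104) and, among others, without a minimum (adjusted p = 0.0568).

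These enzymes act one after the other in the same pathway and moved in opposite directions, so the 250 bases before each start in RefSeq (GRCm38.p6, the mm10 build) are shown side by side, written 5′ to 3′ on the gene's strand. Capitals mark the nuclear receptor core motif AGGTCA, written TGACCT where it lies on the other strand. The Hsd3b7 window is chr7:127800359-127800608 and that of Akr1d1 is chr6:37529923-37530172.
Hsd3b7: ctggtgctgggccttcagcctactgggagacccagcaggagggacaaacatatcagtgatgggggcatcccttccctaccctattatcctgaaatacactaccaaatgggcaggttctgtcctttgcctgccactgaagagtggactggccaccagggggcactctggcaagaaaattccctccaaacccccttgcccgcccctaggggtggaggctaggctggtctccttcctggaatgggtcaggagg
Akr1d1: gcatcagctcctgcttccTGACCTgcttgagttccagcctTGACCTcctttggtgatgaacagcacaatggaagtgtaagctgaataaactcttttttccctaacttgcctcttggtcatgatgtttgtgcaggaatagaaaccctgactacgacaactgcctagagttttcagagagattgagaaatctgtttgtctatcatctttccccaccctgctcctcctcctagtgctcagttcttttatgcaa
The Akr1d1 window holds the core motif at 232 and at 210 bases before the start, both as TGACCT, and the Hsd3b7 window holds none. Of 32851 promoter windows of this length, 14.0% hold the motif on either strand. Neither window holds CACGTG, the E-box read by circadian activators, or TTANGTAA, the D-box, in either direction, which 6.02% and 2.06% of all windows hold. These matches are a description of the letters, and binding was not measured.

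The other genes of bile acid synthesis were read from a list of 12, all of which were tested. Over both treatments 3 were higher at ZT12 and 0 lower (limma adjusted p under 0.05), beside 29.7% of all genes called in either direction, and the list's median difference was 0.11, beside 0.01 for all genes. Cyp7a1, the rate-limiting enzyme that starts the main pathway, rose by 1.96 (SE 0.303, adjusted p = 0.000562), from means of 11.8 FPKM ± 5.15 (SD, n = 3) to 48.2 ± 21.6 with vehicle and from 11.8 ± 6.81 to 44.8 ± 9.12 with Libramed. Slc27a5, which activates bile acids for conjugation, rose by 0.39 (SE 0.068, adjusted p = 0.00115), and Hsd17b4, a peroxisomal enzyme of side-chain shortening, rose by 0.23 (SE 0.078, adjusted p = 0.0431). Akr1c14, an aldo-keto reductase, differed by 0.45 (adjusted p = 0.0653) and Baat, which joins bile acids to amino acids, by 0.11 (adjusted p = 0.0915), and neither was called.

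**Figure D2:**
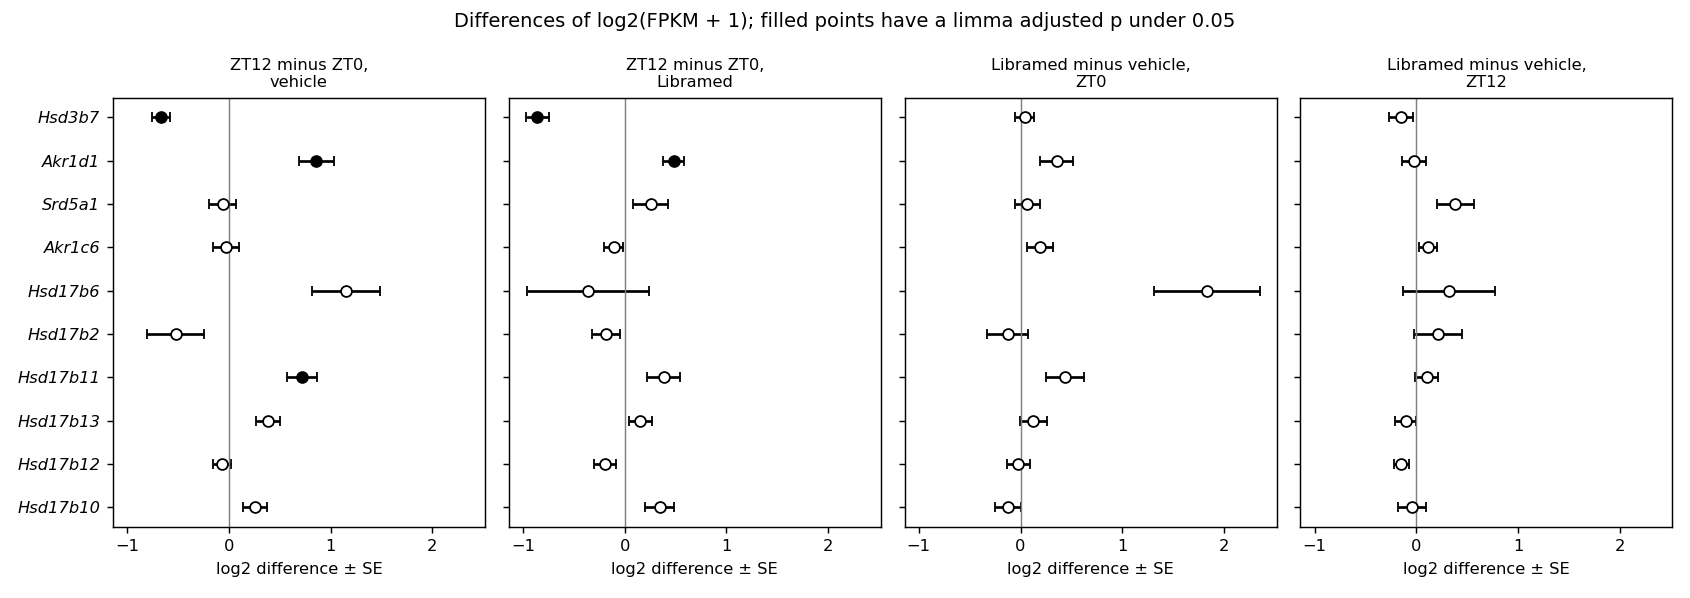
Difference of log2(FPKM + 1) with its standard error (horizontal axis) for each of the 10 genes in the 4 comparisons of 3 mice with 3, where filled points have a limma adjusted p under 0.05. The differences with time hold 3 filled points with vehicle and 2 with Libramed, those between treatments hold 0, and the widest bars are those of Hsd17b6.

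Hsd17b11 and Hsd17b13 are proteins of the lipid droplet surface. Their genes are neighbours on the minus strand of chromosome 5, with 12.4 kb between Hsd17b13 (chr5:103955440-103977410) and Hsd17b11 (chr5:103989762-104021919). Hsd17b11 was at 50.5, 72.1 and 70.1 FPKM at ZT0 and at 99.1, 106 and 110.4 FPKM at ZT12 with vehicle. In Libramed-treated mice it was at 106, 74.0 and 81.9 FPKM at ZT0 and at 106, 101.5 and 133 FPKM at ZT12. The times did not overlap with vehicle, while with Libramed 1 liver at ZT0 lay within the ZT12 range. Hsd17b11 rose by 0.72 (SE 0.145, limma adjusted p = 0.0284) with vehicle and by 0.55 (SE 0.121, adjusted p = 0.00503, exact permutation p = 0.01) over both, the latter in all 20 alternatives. The difference with Libramed was 0.38 (SE 0.160, adjusted p = 0.164) and was not called. The call with vehicle held in 7 of 15 alternatives. It was lost without ZT0 replicate 3 or any 1 of the 3 ZT12 libraries (adjusted p between 0.0651 and 0.102) and in 4 analyses that kept all libraries, the highest adjusted p being 0.183 in the Cyber-T style test.

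Hsd17b13, the more abundant of the pair in every liver, was at 253, 286 and 245 FPKM at ZT0 and at 312, 320.1 and 395 FPKM at ZT12 with vehicle. Libramed-treated livers held 324, 244 and 289 FPKM at ZT0 and 333, 309 and 307 FPKM at ZT12. Again the times did not overlap with vehicle and overlapped with Libramed. Hsd17b13 rose by 0.27 (SE 0.089, limma adjusted p = 0.0369, exact permutation p = 0.015) over both treatments, and neither treatment alone was called, with differences of 0.39 (adjusted p = 0.0926) with vehicle and 0.15 (adjusted p = 0.430) with Libramed. This call was lost in 10 of 20 alternatives. They included leaving out vehicle at ZT0 replicate 1 or 3, vehicle at ZT12 replicate 2 or 3, Libramed at ZT0 replicate 2 or Libramed at ZT12 replicate 1 (adjusted p between 0.0593 and 0.0835).

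As adjacent genes with calls in the same direction, this pair was also compared by promoter, over chr5:104021797-104022046 for Hsd17b11 and chr5:103977389-103977638 for Hsd17b13, both read on the minus strand with the same marking.
Hsd17b11: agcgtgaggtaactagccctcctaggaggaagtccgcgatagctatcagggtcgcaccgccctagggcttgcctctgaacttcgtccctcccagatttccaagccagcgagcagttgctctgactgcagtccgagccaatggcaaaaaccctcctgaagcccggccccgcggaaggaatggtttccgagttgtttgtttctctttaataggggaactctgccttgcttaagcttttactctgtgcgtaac
Hsd17b13: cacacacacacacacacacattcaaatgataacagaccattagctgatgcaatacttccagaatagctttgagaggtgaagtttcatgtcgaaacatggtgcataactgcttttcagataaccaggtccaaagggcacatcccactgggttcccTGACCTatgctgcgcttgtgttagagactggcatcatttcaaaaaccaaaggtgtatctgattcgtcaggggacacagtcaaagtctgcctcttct
The Hsd17b11 window holds 13 CG pairs, more than 68.5% of all windows, and no core motif. The Hsd17b13 window holds 3 CG pairs, more than 29.0% of all windows, and the core motif 96 bases before its start. Neither holds the E-box or the D-box, and among the 9 members matched to a RefSeq promoter only Akr1d1 and Hsd17b13 hold the core motif.

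Other lipid droplet proteins moved in both directions. Of 15 tested from a list of 18, 5 were higher and 3 lower at ZT12 over both treatments (limma adjusted p under 0.05), with a median of 0.11, beside 29.7% of all genes called. Plin4, a droplet coat protein, rose by 1.45 (SE 0.299, adjusted p = 0.00346), Cidec, which fuses droplets, rose by 1.15 (SE 0.148, adjusted p = 0.000158) and Pnpla2, the main triglyceride lipase of droplets, rose by 0.54 (SE 0.076, adjusted p = 0.000291). The coat proteins Plin2 (−0.51, SE 0.099, adjusted p = 0.00237) and Plin3 (−0.46, SE 0.078, adjusted p = 0.000999) fell. The remaining calls, named after their values were seen, were Fitm1 (0.62) and Fitm2 (0.62), which help droplets form, and Hilpda (−0.44), a lipase inhibitor. The neighbouring genes therefore shared their direction with some droplet proteins and not with others.

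The 4 members best known for acting on sex steroids were not called between times in any comparison. Hsd17b6 (chr10:127990936-128007611, minus strand) belongs to a family of androgen and retinol dehydrogenases. It was at 22.0, 14.3 and 13.6 FPKM at ZT0 and at 54.2, 22.4 and 42.5 FPKM at ZT12 with vehicle. With Libramed it was at 95.2, 23.8 and 95.9 FPKM at ZT0 and at 40.3, 29.1 and 86.9 FPKM at ZT12. The 3 vehicle livers at ZT0 held the 3 lowest values, and livers of 1 group differed by up to 4.03-fold, with Libramed at ZT0. The spread of Hsd17b6 within groups, an SD of 0.78 on the log2 scale, was wider than that of 98.8% of genes tested. Its time difference was 1.15 (SE 0.331, limma adjusted p = 0.0753) with vehicle and −0.36 (SE 0.601, adjusted p = 0.741) with Libramed. The former was called without vehicle at ZT12 replicate 2 (adjusted p = 0.0416) and by a Cyber-T style test (adjusted p = 0.0240). Of its transcript windows of 100 bases, 8.77% also occur in transcripts of other genes, among them Rdh1, Rdh16f1, Rdh19, Rdh18-ps and Rdh9. Part of the value of Hsd17b6 is therefore uncertain.

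Hsd17b2 (chr8:117701904-117759027, plus strand) oxidises testosterone and estradiol to weaker keto forms. It was at 100.1, 174 and 134 FPKM at ZT0 and at 135, 76.5 and 75.6 FPKM at ZT12 with vehicle. The values with Libramed were 134, 107 and 124 FPKM at ZT0 and 104, 93.1 and 126 FPKM at ZT12. The groups overlapped in every comparison, and the time difference over both treatments was −0.35 (SE 0.169, limma adjusted p = 0.137).

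Akr1c6 (chr13:4434306-4457877, plus strand) was at 1069, 923 and 1192 FPKM at ZT0 and at 1106, 1064 and 939 FPKM at ZT12 with vehicle. In Libramed-treated mice it was at 1258, 1111 and 1259.8 FPKM at ZT0 and at 1094, 1086 and 1184 FPKM at ZT12. This highest member also had a narrow range, 1.37-fold over the 12 livers, and a time difference of −0.07 (SE 0.074, limma adjusted p = 0.525) over both treatments.

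Srd5a1 (chr13:69573449-69611442, minus strand), the reductase that makes dihydrotestosterone and flattens the ring where Akr1d1 bends it, was at 28.5, 31.1 and 33.1 FPKM at ZT0 and at 31.9, 33.3 and 24.3 FPKM at ZT12 with vehicle. With Libramed the values were 35.1, 27.3 and 35.5 FPKM at ZT0 and 45.4, 30.2 and 42.7 FPKM at ZT12. Its time difference over both treatments was 0.10 (SE 0.122, limma adjusted p = 0.589). Transcripts annotated to Gm17108 hold 13.6% of its 100-base windows, which leaves its level uncertain by an amount that was not estimated.

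The list of steroid conjugation and P450 steroid hydroxylation, the steps that follow on sex steroids in liver, held 19 genes, 15 of them tested. At ZT12, 7 were higher and 0 lower over both treatments (limma adjusted p under 0.05), with a median of 0.28, beside 29.7% of all genes called and a median of 0.01. Por, the reductase that feeds electrons to microsomal P450 enzymes, rose by 2.27 (SE 0.211, adjusted p = 1.92e-05), and Cyb5a, another electron donor, by 0.56 (SE 0.071, adjusted p = 0.000149). Ugt2b34, a glucuronosyltransferase, rose by 0.50 (SE 0.104, adjusted p = 0.00388), Sult2a8, a sulfotransferase, by 0.35 (SE 0.084, adjusted p = 0.00786) and Cyp3a25, a steroid hydroxylase, by 0.33 (SE 0.078, adjusted p = 0.00796).

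**Figure D3:**
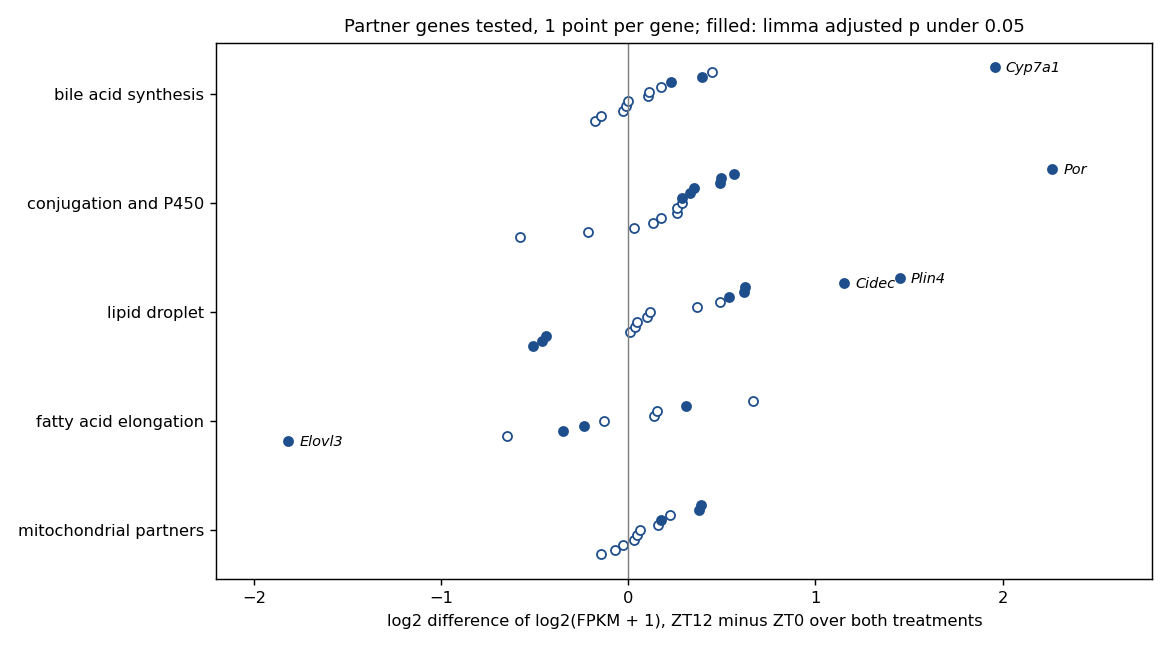
Difference of log2(FPKM + 1) between ZT12 and ZT0 over both treatments (horizontal axis) for the genes tested in 5 partner lists (rows), 1 point per gene, filled where the limma adjusted p is under 0.05. Por, Cyp7a1, Plin4 and Cidec stand farthest to the right and Elovl3 farthest to the left, and the filled points of 3 lists lie on the right side alone.

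Hsd17b12 (chr2:94032689-94157964, minus strand) carries the family name but works mainly as the ketoacyl reductase of fatty acid elongation. It was the steadiest member, with a 1.30-fold range over the 12 livers. With vehicle it was at 92.6, 88.9 and 95.5 FPKM at ZT0 and at 96.0, 82.0 and 86.9 FPKM at ZT12. The Libramed livers were at 100.4, 96.1 and 77.9 FPKM at ZT0 and at 77.4, 80.1 and 80.9 FPKM at ZT12. The times overlapped in both treatments, and the difference over both was −0.13 (SE 0.069, limma adjusted p = 0.181). Of 9 elongation partners tested from a list of 16 symbols, 1 rose and 3 fell over both treatments (adjusted p under 0.05), beside 29.7% of all genes called. Elovl3, an elongase, fell by 1.82 (SE 0.246, adjusted p = 0.000226), from 337 FPKM ± 167 (SD, n = 3) to 81.1 ± 19.5 with vehicle and from 283 ± 78.3 to 83.3 ± 9.99 with Libramed. Elovl2 fell by 0.35 (SE 0.115, adjusted p = 0.0382), Elovl1 fell by 0.23 (SE 0.051, adjusted p = 0.00455) and Hacd3, the dehydratase of the next step, rose by 0.31 (SE 0.052, adjusted p = 0.000985). Hacd2, another dehydratase, differed by 0.15 and was not called (adjusted p = 0.0690).

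Hsd17b10 (chrX:152001845-152004442, plus strand) works in mitochondria, in the breakdown of isoleucine and as a subunit of the RNase P that trims transfer RNAs. It was at 395, 317 and 302 FPKM at ZT0 and at 407, 424 and 376 FPKM at ZT12 with vehicle. With Libramed it was at 326, 291 and 306 FPKM at ZT0 and at 329.9, 376 and 480.2 FPKM at ZT12. The times did not overlap with Libramed, and 1 vehicle liver at ZT0 lay within the ZT12 range. Hsd17b10 rose by 0.30 over both treatments (SE 0.095, limma adjusted p = 0.0312, exact permutation p = 0.015), with 0.26 (adjusted p = 0.229) for vehicle alone and 0.34 (adjusted p = 0.160) for Libramed alone. The call was lost in 10 of 20 alternatives, 7 of which left out a library, namely vehicle at ZT0 replicate 2 or 3, vehicle at ZT12 replicate 1 or 2, Libramed at ZT0 replicate 2 or 3, or Libramed at ZT12 replicate 3 (adjusted p between 0.0519 and 0.0710). Among 11 mitochondrial partners tested, 3 rose and 0 fell, beside 29.7% of all genes called, and the list's median was 0.06. They were subunits of the complex that breaks down branched-chain keto acids, Dbt (0.39, SE 0.071, adjusted p = 0.00161), Bckdhb (0.38, SE 0.065, adjusted p = 0.00116) and Bckdha (0.17, SE 0.059, adjusted p = 0.0420). Elac2, which cuts the other end of transfer RNAs, was at −0.15 (adjusted p = 0.0794) and Echs1, a hydratase of the same breakdown route, at 0.16 (adjusted p = 0.140), and neither was called.

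To identify members that differed with the product, Libramed was compared with vehicle at each time and over both times. No member was called at ZT0, at ZT12 or over both times (limma adjusted p under 0.05), where 0%, 0% and 0.0204% of all genes were called. At an unadjusted p under 0.05, 2 members were higher with Libramed at ZT0, Hsd17b6 and Hsd17b11, beside 9.23% of all genes, and 0 members passed at ZT12, beside 6.74%. Over both times the same pair of genes passed at that threshold, beside 10.1% of all genes. The treatments did not overlap for 2 members at ZT0, again Hsd17b6 and Hsd17b11 (15.1% of all genes), and for 1 at ZT12, Hsd17b12 (13.1%). The median difference of the members, as Libramed minus vehicle, was 0.10 at ZT0 and 0.04 at ZT12, beside −0.02 and −0.01 for all genes. A Cyber-T style test called 0 members after adjustment in all 3. At an unadjusted p under 0.05, the threshold of the study, it passed 2 members at ZT0, 0 at ZT12 and 1 over both times. The share of all genes passing that test is not given here, so these counts cannot be set against a background.

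At ZT0 Hsd17b6 had the largest difference of the members. All 3 Libramed livers, at 95.2, 23.8 and 95.9 FPKM, lay above the 3 vehicle livers, the highest of which was at 22.0 FPKM. The gap between the nearest livers of the groups, 22.0 and 23.8 FPKM, was small beside the spread with Libramed. The difference was 1.83 (SE 0.519), or 3.56-fold on this scale, with an unadjusted limma p of 0.00930 and an adjusted p of 0.459. Exact permutation gave p = 0.1, the smallest that 3 mice against 3 allow. Libramed at ZT0 replicate 2 decided this value. Without it, the difference was 2.49 and was called (adjusted p = 0.0410), whereas without any other library it lay between 1.502 and 2.04 and was not. At ZT12 the Hsd17b6 difference was 0.32 (SE 0.452, adjusted p = 0.893), and over both times it was 1.08 (SE 0.427, adjusted p = 0.446, exact permutation p = 0.075). The comparisons at ZT0 and between times share the vehicle livers at ZT0, which held low values of Hsd17b6.

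For Hsd17b11 at ZT0, the Libramed livers, at 106, 74.0 and 81.9 FPKM, lay above the vehicle livers, whose highest value was 72.1 FPKM. The difference was 0.44 (SE 0.183, limma adjusted p = 0.540) at ZT0, 0.10 (SE 0.113, adjusted p = 0.865) at ZT12 and 0.27 (SE 0.121, adjusted p = 0.480, exact permutation p = 0.06) over both. Akr1c6 differed by 0.15 over both times (SE 0.074, adjusted p = 0.502, exact permutation p = 0.05), and Srd5a1 differed by 0.38 at ZT12 (SE 0.182, adjusted p = 0.729). Hsd17b12 at ZT12 was between 77.4 and 80.9 FPKM with Libramed and between 82.0 and 96.0 FPKM with vehicle, a difference of −0.15 (SE 0.077, adjusted p = 0.729). For Hsd3b7, which changed most steadily with time, the treatments differed by 0.04 (SE 0.091, adjusted p = 0.919) at ZT0 and by −0.15 (SE 0.120, adjusted p = 0.781) at ZT12.

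Some cell markers also differed between treatments at ZT0 before adjustment. The hepatocyte markers summed to between 47255 and 50654 FPKM with vehicle and between 56006 and 67520 FPKM with Libramed. Of 8 tested, 2 were higher and 1 lower at an unadjusted limma p under 0.05. The marker counts below use the same threshold, which 9.23% of all genes passed, and 15.1% of all genes did not overlap between treatments. Most of each sum was Apoa1 (21890 to 23580 FPKM with vehicle, 25810 to 32460 with Libramed) and Fabp1 (10660 to 12740 and 16660 to 20290). Tat went the other way, from 499.5 to 834.1 FPKM with vehicle and 372.8 to 441.3 with Libramed. The remaining markers overlapped between treatments or were at 0. The Kupffer cell and macrophage markers summed to between 28.8 and 35.9 FPKM with vehicle and between 15.99 and 28.5 FPKM with Libramed, with 3 of 5 tested lower. Endothelial markers summed to between 28.0 and 37.9 FPKM with vehicle and between 36.3 and 44.4 FPKM with Libramed, with 2 of 6 tested higher. The fat list, in which Lep was at 0 and Adipoq and Plin1 at or near 0, had sums that did not overlap. They lay between 1532 and 2629 FPKM with vehicle and between 2647 and 3206 FPKM with Libramed. Almost all of each sum was Car3, at 1524 to 2622 FPKM with vehicle and 2642 to 3205 FPKM with Libramed. Of 2 genes tested, Car3 was higher and Cfd lower. Cfd lay between 2.855 and 7.971 FPKM with vehicle and between 0.3089 and 4.99 FPKM with Libramed. Stellate and fibroblast markers were higher in 1 of 5 tested and cholangiocyte markers lower in 1 of 4. No marker had an adjusted p under 0.05 at ZT0, and the part of these differences in those of Hsd17b6 and Hsd17b11 was not tested.

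Whether the change with time itself differed between treatments was tested as an interaction over the 12 livers. No member was called (limma adjusted p under 0.05), as 0% of all genes were, and 0 members had an unadjusted p under 0.05, beside 6.63% of all genes. Hsd17b6 had the largest interaction, −1.51 (SE 0.767, adjusted p = 0.764, exact permutation p = 0.215), with a higher mean at ZT12 than at ZT0 for vehicle (39.7 against 16.6 FPKM) and a lower one for Libramed (52.1 against 71.6 FPKM). For Hsd17b11 and Akr1d1, whose time differences were smaller with Libramed, it was −0.34 (SE 0.231, adjusted p = 0.845) and −0.38 (SE 0.214, adjusted p = 0.801). Thus the call of Hsd17b11, the only one made with vehicle and not with Libramed, was not shown to differ between treatments.

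The remaining members of the families gave a wider picture of the change with time. Of 28 listed in the table, 17 were tested, and 8 rose and 2 fell over both treatments (limma adjusted p under 0.05), with a median of 0.23, beside 29.7% of all genes called in either direction and a median of 0.01. Akr1c19, an aldo-keto reductase, rose by 1.46 (SE 0.111, adjusted p = 3.86e-06), from 22.9 FPKM ± 5.20 (SD, n = 3) to 71.4 ± 10.9 with vehicle and from 23.7 ± 1.52 to 60.6 ± 6.28 with Libramed. Its relatives Akr1c12 (0.58, SE 0.069, adjusted p = 0.000101) and Akr1c13 (0.39, SE 0.072, adjusted p = 0.00192) also rose, as did the steroid dehydrogenases Hsd3b2 (0.58, SE 0.103, adjusted p = 0.00137) and Hsd3b3 (0.36, SE 0.089, adjusted p = 0.00895). The 2 that fell, named after their values were seen, were Hsd3b5 (−0.78), a male-biased liver enzyme, and Hsd17b7 (−0.63), which acts in cholesterol synthesis. These aldo-keto reductases and Hsd3b genes have close relatives, so their values are uncertain where reads could match more than 1 of them. No gene of this list was called between treatments at ZT0, at ZT12, over both times or in the interaction. At an unadjusted limma p under 0.05 the counts were 0, 1, 1 and 0, beside 9.23%, 6.74%, 10.1% and 6.63% of all genes.

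**Figure D4:**
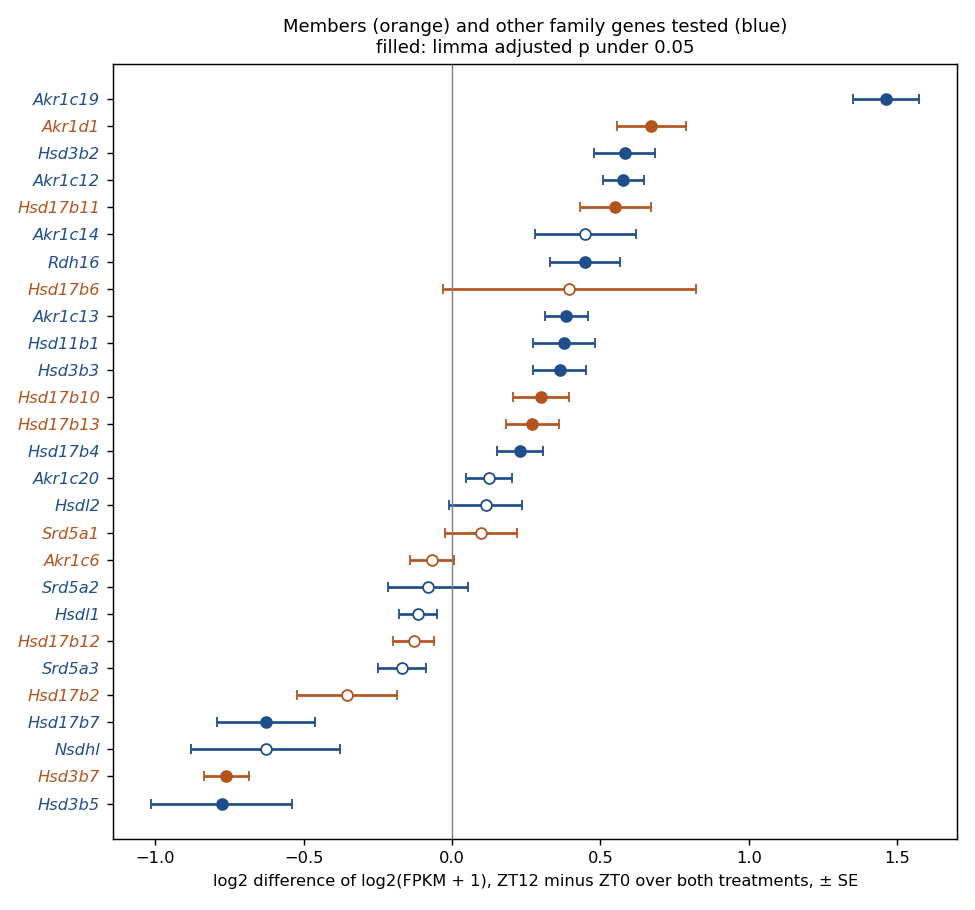
Difference of log2(FPKM + 1) between ZT12 and ZT0 over both treatments, with its standard error (horizontal axis), for the 10 members (orange) and the 17 other family genes tested (blue), filled where the limma adjusted p is under 0.05. Akr1c19 stands highest at 1.46, ahead of the member Akr1d1 at 0.67, while Hsd3b7 at −0.76 and Hsd3b5 at −0.78 lie lowest.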

How the data were processed

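RNA from the livers of 12 mice was sequenced as single-end reads, with 3 biological replicates in each of 4 groups taken from the sample labels. The authors deposited gene-level FPKM values, which the methods call RPKM. The methods name ELAND, mm10 and uniquely aligned reads, whereas the submitters' processing notes name TopHat and Cuffnorm, and the sources differ likewise on whether libraries were stranded. Of 24138 lines, 289 that repeated a symbol with a lower mean were dropped. No counts were used, so no counting error can be given and precision rests on the spread of 3 mice.

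Analysis was on log2(FPKM + 1), which understates changes of low genes. The 9806 genes whose mean reached 1 FPKM were tested, including all 10 members. Tests were from limma 3.58.1 (R 4.3.3), by lmFit and eBayes with trend, two-sided, with Benjamini-Hochberg adjustment over all genes tested. Comparisons of 2 groups used 6 samples, and the interaction and the effects over both treatments or times used 12. Exact permutation tests used 20 or 400 arrangements. The members and the partner lists were chosen with earlier results of these data known. From each partner list, up to 5 genes with the smallest p between times over both treatments are named. Positions and shared transcript windows are from GENCODE vM21 (GRCm38), whose build is that of the files, and promoters are from RefSeq (GRCm38.p6), where 9 of 10 members matched. The calculations were tested on simulated data.

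Alternatives changed the pseudocount (0.1), the minimum (none, or a mean of 5 FPKM), the trend, the scaling (median-ratio or quantile), the test (a Cyber-T style test with a window of 101 genes and a prior weight of 10) or the samples fitted (all 12, or each library left out in turn), or added a replicate block.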

Additional observations from a re-analysis of the deposited data

How the results depend on the processing

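The counts of members called (limma adjusted p under 0.05) depended on the setting for the comparisons of ZT12 with ZT0. Shares of all genes called under each alternative are not given here, so a lower count cannot be read as particular to the members. With vehicle, 3 members were called, 1 without a minimum FPKM, 2 by the Cyber-T style test (Akr1d1 and Hsd17b6), 2 after quantile normalization, and between 1 and 3 with 1 library left out. With Libramed, 2 were called, 1 each without a minimum, by the Cyber-T style test, after quantile normalization and in the fit over all 12 samples, and between 1 and 2 with 1 library left out. Over both treatments, 5 were called, 3 each without a minimum, by the Cyber-T style test and after quantile normalization, and between 3 and 5 with 1 library left out. With vehicle, leaving out ZT0 replicate 3, ZT12 replicate 2 or ZT12 replicate 3 each left 1 call, and so did 5 of the 6 libraries with Libramed, all but ZT12 replicate 1. Over both treatments, leaving out vehicle at ZT0 replicate 3, Libramed at ZT0 replicate 2 or vehicle at ZT12 replicate 2 left 3. Comparisons between treatments and the interaction called 0 members in every alternative, except 1 (Hsd17b6) at ZT0 without Libramed at ZT0 replicate 2, so that this count ranged from 0 to 1. The test without a minimum spans more genes, and the cause of the changes in these counts was not tested. No difference of a member that was called changed its sign. The main tests did not pair the mice by replicate number. The deviations of same-numbered livers correlated between −0.279 and 0.341, over 0.1 in 4 of 18 pairs. With 3 mice per group, this cannot decide whether the numbers pair the mice. With the replicate block, 0 members were called with vehicle, 2 with Libramed and 4 over both treatments. The lowest value of any member in any liver was 13.6 FPKM for Hsd17b6, and the depth behind it cannot be put into counts.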
